A study of Mus musculus with 36 samples.

Results

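The step from E11.5 to E12.5 was read from 6 of the 36 arrays of a time course of the mouse heart, 3 arrays of E11.5 and 3 of E12.5, which were chosen by their stage labels and described across all genes. The series covers each embryonic day from E10.5 to E19.5, together with young and old adult hearts, on 1 design of Affymetrix whole-genome mouse array, and every stage has 3 arrays. All hearts came from the outbred strain OF1, and no genotype or treatment is named in the labels of these 6 samples. At E11.5 the 3 arrays (mf1, mf2 and mf3) are labelled as male and female hearts mixed, whereas at E12.5 one array is labelled female (f), one male (m) and one mixed (mf). Hearts were homogenized whole, so each value is an average over all cell types of the organ and of the blood within it, and fewer cells of a type cannot be told apart from less RNA per cell.

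Between these days the atria and ventricles are being divided, and the endocardial cushions, swellings of matrix that mesenchymal cells have entered, are being shaped into septa and valves. The outflow tract is separated into aorta and pulmonary trunk, and the walls of these vessels begin to lay down elastic fibres, which consist of an elastin core, microfibrils and proteins that align and cross-link them. The blood of this period is made of large nucleated red cells from the yolk sac, which carry embryonic haemoglobins, and macrophages of early origin settle in the heart.

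Each array carries 45101 probe sets, and 1 probe set was taken for each gene. The values are log2 intensities, so that a difference of 1 stands for a 2-fold change and of 2 for a 4-fold one. A gene was tested when its mean was above 5 at 1 or more of the 12 stages, which left 11317 genes. It is said here to have risen or fallen when the adjusted p of the step was under 0.05 in limma, a linear model in which all 36 arrays shared the estimate of the spread. Where a gene was not past this limit, its arrays may still have lain apart, meaning that all 3 arrays of one day were above all 3 of the other.

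The sex labels of the E12.5 arrays did not show in the sex-linked transcripts. The paper left E12.5 out of its comparison of the sexes and gave incomplete sex differentiation as the reason. *Xist*, the RNA that coats the inactive X chromosome of females, stood at 10.44 in the array labelled female, at 10.20 in the one labelled male and at 10.29 in the mixed one. At all other stages the 9 arrays labelled male held *Xist* between 2.00 and 7.34. The Y-linked gene *Eif2s3y* stood at 6.19 in the E12.5 array labelled female, at 6.71 in the one labelled male and at 6.41 in the mixed one, whereas 9 arrays labelled female at other stages held it between 1.89 and 2.75. *Ddx3y*, also Y-linked, was at 6.31, 7.04 and 6.71 in these 3 arrays, against 3.09 to 3.77 in the 9 female-labelled arrays elsewhere. All 3 arrays of E12.5 thus carried transcripts of both sexes, as did the mixed E11.5 arrays, in which *Eif2s3y* was higher (7.07 to 7.30; log2 fold change -0.75, adjusted p = 1), and f, m and mf are used below only as names of arrays.

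**Figure D1:**
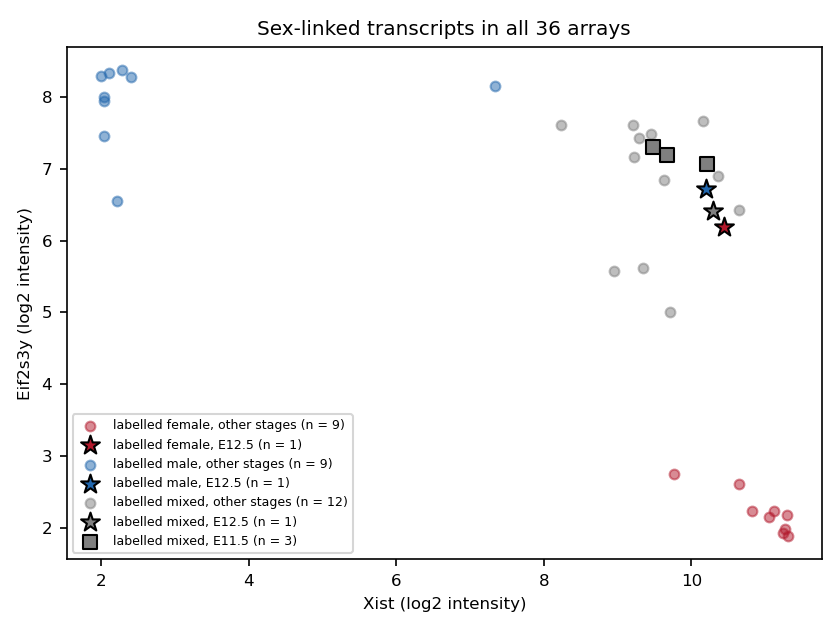
*Xist* against *Eif2s3y* in all 36 arrays (log2 intensity on both axes), 1 point per array, coloured by the sex label, with squares for E11.5 and stars for E12.5. The 3 stars lie together, with *Xist* between 10.20 and 10.44 and *Eif2s3y* between 6.19 and 6.71, among the mixed arrays of other stages.

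Over all probe sets, arrays of different days were not always further apart than arrays of one day. The Euclidean distance was 50.1 to 59.7 within E11.5, 39.9 to 56.6 within E12.5 and 50.7 to 68.5 between the days, and the array nearest to E11.5 mf3 was E12.5 f. In 29 of the genes tested, E11.5 mf3 differed by more than 1 log2 unit from both other E11.5 arrays, as against 3 genes for mf1, 4 for mf2 and 0 to 2 for each E12.5 array. E12.5 mf held the middle value of the 3 arrays of its day in 54.2% of genes, f in 20.9% and m in 24.7%. The distance of mf was 44.6 to f and 39.9 to m, while f and m were 56.6 apart. Why mf lay between the others was not tested. Hybridization controls, added to each array in fixed amounts, averaged 10.35 to 10.58 at E11.5 and 10.03 to 10.52 at E12.5. Poly-A controls, spiked into the RNA, averaged 6.22 to 6.598 at E11.5 and 5.76 to 6.02 at E12.5, so that they did not overlap between the days, and their part in the results was not tested.

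Of the 11317 genes, 15 rose (0.133%) and 8 fell (0.0707%) from E11.5 to E12.5, and 19 of these 23 changed by more than 2-fold. In all 23 the arrays lay apart. The genes that rose were led by *Fbln5*, *Eln*, *Mgp*, *Osr1* and *Dpt*, of which all but the transcription factor *Osr1* encode proteins of the extracellular matrix. The genes that fell were led by *Hemgn*, *Acp5* and the embryonic globin gene *Hbb-bh1*. The median log2 fold change over all genes tested was -0.0012, with a median standard error of 0.19, and 597 genes (5.28%) had an unadjusted p under 0.05, 304 with higher and 293 with lower values at E12.5. The arrays of both days lay apart in 1067 genes with higher (9.43%) and 1350 with lower (11.9%) values at E12.5. At the limits of the study for its own comparisons, an adjusted p under 1e-05 and a log2 fold change above 2 in size, 1 gene remained (0.00884%), *Hemgn*.

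The number of calls varied with the model. The arrays of E11.5 and E12.5 varied least of all stages, with a median standard deviation per gene of 0.14 and 0.12, against 0.15 to 0.26 at other stages. A model of these 6 arrays alone called 66 genes higher and 42 lower, 21 of the 23 among them, and a model that weighted arrays by their own spread called 407 higher and 407 lower. That model gave E12.5 mf a weight of 5.55, against 1.15 to 2.1 for the other arrays of these days. Without E11.5 mf1, 2 genes were higher and 2 lower.

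**Figure D2:**
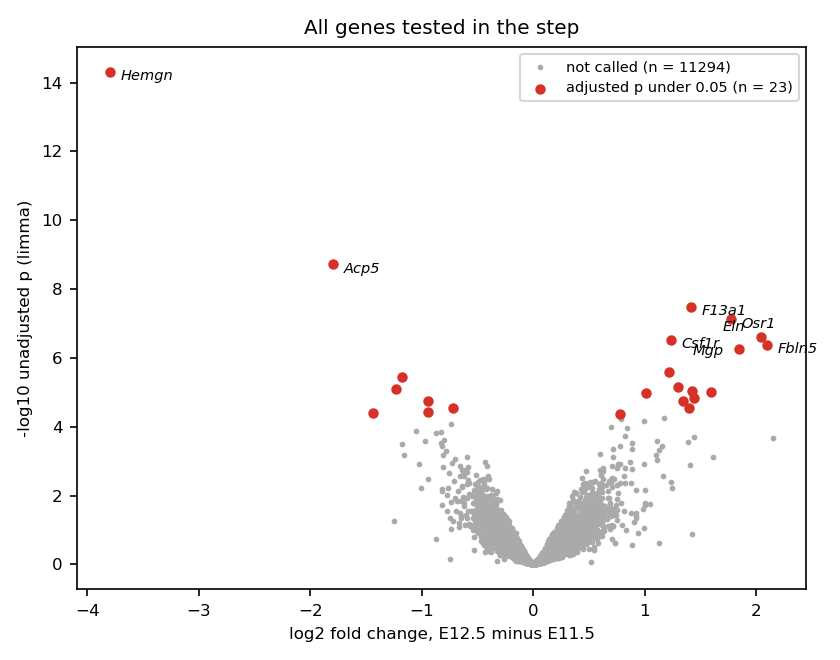
Log2 fold change from E11.5 to E12.5 (x axis) against -log10 of the unadjusted p in limma (y axis) for the 11317 genes tested, with the 23 genes past the adjusted limit as larger points. *Hemgn*, at -3.79, and *Acp5*, at -1.80, lie apart from the other genes that fell, and the grey point at 2.15 is *Sfrp2*, which had a large standard error.

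The largest increases among the genes that rose were those of *Fbln5* and *Eln*, which encode proteins of elastic fibres. *Fbln5*, which encodes a fibulin needed to assemble elastic fibres, was at 6.82, 8.12 and 7.25 in mf1, mf2 and mf3 of E11.5 and at 9.50, 9.52 and 9.46 in f, m and mf of E12.5 (log2 fold change 2.10, standard error 0.33, adjusted p = 0.0024). *Eln*, the gene of elastin itself, was at 6.06, 7.13 and 6.92 and then at 8.80, 8.72 and 8.71 (2.04, standard error 0.31, adjusted p = 0.0022). In both genes the E11.5 arrays were spread over about 1 log2 unit, with mf1 lowest, while the E12.5 arrays differed by 0.1 or less. *Lox*, the lysyl oxidase that cross-links elastin and collagen, was at 6.11, 6.55 and 6.003 and then at 7.64, 7.57 and 7.65 (1.40, standard error 0.29, adjusted p = 0.036). *Ltbp3*, a microfibril-associated protein that holds latent TGF-β, was at 6.52, 7.04 and 6.80 and then at 7.87, 7.68 and 7.83 (1.01, standard error 0.19, adjusted p = 0.019). The E12.5 arrays of all these genes stood above every E11.5 array. Other genes of the fibre were not past the limit, with a difference of 0.08 for the fibrillin gene *Fbn2*, whose arrays overlapped, and of 0.53 for the oxidase gene *Loxl1*, whose arrays lay apart (both adjusted p = 1). When mf1 of E11.5 was left out, *Fbln5* and *Eln* were at an adjusted p of 0.066. *Lox* passed with none of the 6 arrays left out in turn (adjusted p = 0.057 to 0.28), and *Ltbp3* passed only without mf2 of E11.5 (0.024, otherwise 0.071 to 0.28). With the mean over all probe sets of a gene, *Ltbp3* was not past the limit (0.70, adjusted p = 0.27), its other expressed probe sets having differences of 0.57 and 0.53 (both adjusted p = 1), while *Fbln5* and *Eln* passed with smaller values of 1.19 and 1.15, and *Lox* with 0.86.

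Among further matrix genes, *Mgp*, the gene of matrix Gla protein, an inhibitor of calcification, was at 5.49, 5.85 and 5.93 at E11.5 and at 7.43, 7.80 and 7.55 at E12.5 (log2 fold change 1.84, standard error 0.29, adjusted p = 0.0028). *Ogn*, which encodes a small leucine-rich proteoglycan, was at 4.75, 4.78 and 5.13 and then at 6.29, 6.48 and 6.21 (1.44, standard error 0.28, adjusted p = 0.025). *Thbs2*, the gene of a thrombospondin that modulates contacts of cells with matrix, was at 4.31, 4.38 and 4.76 and then at 5.96, 5.65 and 5.75 (1.30, standard error 0.24, adjusted p = 0.016). These 3 genes had no value in common between the days. *Dpt*, which encodes dermatopontin, a binder of collagen fibrils and proteoglycans, was at 3.11 and 3.13 in mf1 and mf2, but at 4.90 in mf3 of E11.5, close to the 5.11, 5.37 and 5.44 of E12.5 (1.60, standard error 0.30, adjusted p = 0.019). Without mf3 its log2 fold change was 2.19 (adjusted p = 8.5e-06), and without mf1, mf2, m or mf it was not past the limit (adjusted p = 0.11 to 0.31). *Mgp* was not past the limit without mf1 of E11.5 (0.066), and *Ogn* and *Thbs2* passed only without mf3 of E11.5 (0.042 and 0.021), with 0.067 to 0.21 without any other array. With the mean over its probe sets *Ogn* was not past the limit (1.24, adjusted p = 0.14).

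The 42 genes of a list of collagens and other matrix proteins were all expressed. Of these 5 (*Fbln5*, *Eln*, *Mgp*, *Ogn* and *Lox*) rose and 0 fell, beside 0.133% and 0.0707% of all genes. Members of this and the other lists were chosen with earlier results of these data known, so such counts and medians describe the lists only. The arrays lay apart with higher values at E12.5 in 30 of the 42 and with lower values in 0, beside 9.43% and 11.9% of all genes. The median log2 fold change of the list was 0.47, beside -0.0012 for all genes tested, and 39 genes had a positive value. Of the fibrillar collagens, *Col1a1* was at 8.18, 8.66 and 8.49 at E11.5 and at 9.18, 8.67 and 8.80 at E12.5 (log2 fold change 0.43, adjusted p = 1), and *Col3a1* was at 11.56, 11.82 and 11.63 and then at 12.28, 12.25 and 12.24 (0.58, adjusted p = 1). *Col1a2* had a larger difference, from 10.05, 10.41 and 10.18 to 11.16, 11.26 and 11.21 (1.00, adjusted p = 0.061). *Mfap4*, *Col6a3* and *Lum*, with differences of 1.17, 1.38 and 1.61, were not past the limit either (adjusted p = 0.056, 0.15 and 0.28). The basement membrane collagens *Col4a1* and *Col4a2* differed by 0.00 and 0.03 and *Col18a1* by 0.01, all with an adjusted p of 1, and their arrays overlapped.

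**Figure D3:**
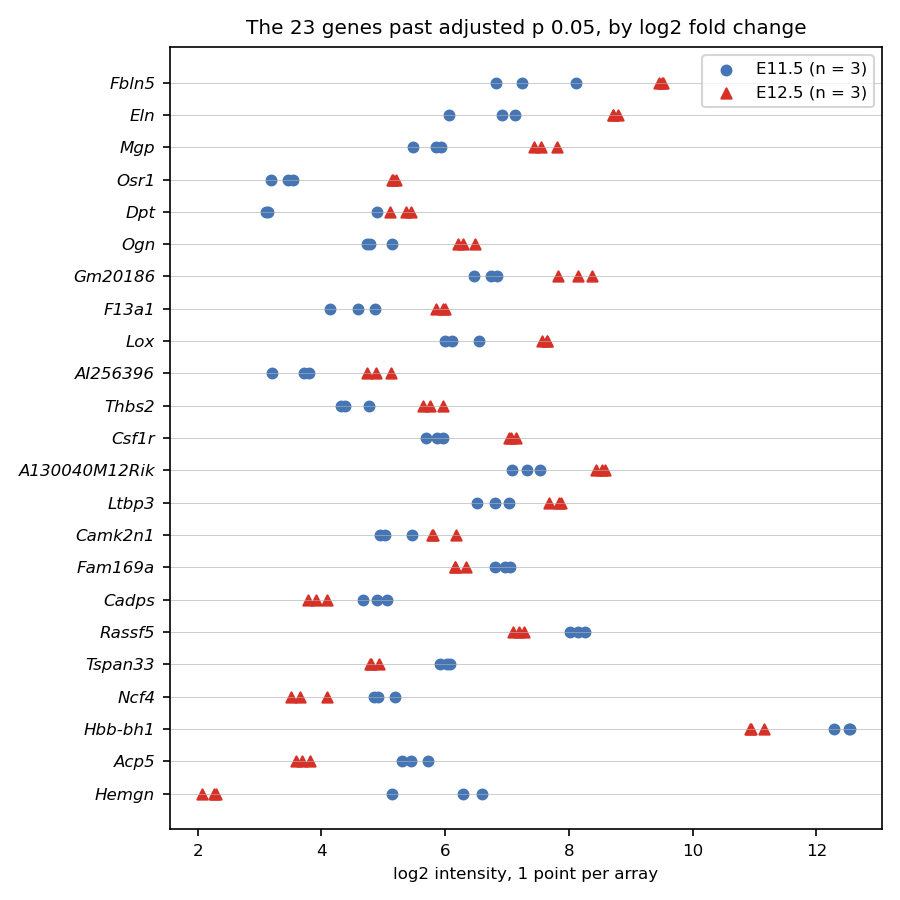
Log2 intensity (x axis) of the 23 genes that rose or fell, 1 row per gene ordered by log2 fold change, with a circle for each E11.5 array and a triangle for each E12.5 array. The groups do not overlap in any row, and the gap is narrowest for *Dpt*, where 1 E11.5 array (4.90) lies near the lowest E12.5 array (5.11).

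*Osr1*, which encodes a zinc finger transcription factor required for division of the atria, was the transcription factor among the genes that rose, and it passed with each of the 6 arrays left out (adjusted p = 0.0028 to 0.024). It was at 3.19, 3.54 and 3.46 at E11.5 and at 5.15, 5.21 and 5.17 at E12.5 (log2 fold change 1.78, standard error 0.25, adjusted p = 0.00086). The stage means on both sides showed that it had been near this lower level at E10.5 (3.07) and that it was highest at E13.5 (5.57), before it stood between 3.87 and 4.56 from E14.5 to E19.5. Other genes of division and cushion formation were read from a list of 39 expressed genes for cushion mesenchyme and valves. Of these 1 rose (*Ogn*) and 0 fell, beside 0.133% and 0.0707% of all genes. Arrays lay apart with higher values in 16 and with lower values in 4 of these genes, beside 9.43% and 11.9% of all genes, and the list had a median of 0.17.

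Members of this list without a call at their chosen probe set had values in both directions. *Hapln1*, whose product links hyaluronan to proteoglycans, was at 8.91, 8.95 and 9.06 at E11.5 and at 8.32, 8.01 and 8.17 at E12.5 (log2 fold change -0.81, adjusted p = 0.39). A second probe set of *Hapln1* was past the limit, with 7.85, 7.79 and 7.27 against 6.89, 6.75 and 6.45 (-0.94, adjusted p = 0.027). *Has2*, the hyaluronan synthase of the cushions, and *Vcan*, the gene of versican, differed by -0.35 and -0.33 (both adjusted p = 1), and the arrays of both lay apart. *Postn*, *Fbln2* and *Dcn*, which encode periostin, fibulin 2 and decorin of the valve matrix, differed by 0.34, 0.47 and 0.83 (adjusted p = 1, 1 and 0.13), and their arrays lay apart in the other direction.

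*Csf1r* and *F13a1*, both known from macrophages, rose. *Csf1r*, the receptor for the growth factor on which macrophages depend, was at 5.70, 5.88 and 5.96 at E11.5 and at 7.15, 7.03 and 7.06 at E12.5 (log2 fold change 1.24, standard error 0.19, adjusted p = 0.0022). *F13a1*, the A subunit of coagulation factor XIII, which tissue macrophages express strongly, was at 4.14, 4.58 and 4.86 and then at 5.99, 5.97 and 5.86 (1.41, standard error 0.19, adjusted p = 0.0005). Both genes lay apart between the days and differed little among the E12.5 arrays. *Mrc1*, the mannose receptor of resident macrophages, was at 3.76, 3.78 and 3.80 and then at 5.11, 5.34 and 5.20, but with a standard error of 0.34 it did not pass (1.44, adjusted p = 0.13). *F13a1* passed with each of the 6 arrays left out (adjusted p = 0.00024 to 0.024), and *Csf1r* with all but mf1 of E11.5 (0.064). With the mean over its probe sets *Csf1r* was not past the limit (0.66, adjusted p = 0.093).

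Of 20 expressed genes on a list of macrophage and other white cell genes, 2 rose and 0 fell, beside 0.133% and 0.0707% of all genes. A positive value was found in 19, and the median was 0.26. The arrays lay apart with higher values in 7 genes, among them *C1qc* (0.49) and *Ptprc* (0.33), the pan-leukocyte phosphatase, which had values below 4 on both days, and with lower values in 1, the platelet factor gene *Pf4* (-0.38), beside 9.43% and 11.9% of all genes. *Adgre1*, which encodes the macrophage antigen F4/80, stood at 4.69, 5.01 and 4.91 and then at 4.90, 4.68 and 5.03 (0.00, adjusted p = 1), and *Cx3cr1* differed by 0.11 (adjusted p = 1). On the linear scale the summed level of the 24 genes of this list on the array, as log2, was 9.05 to 9.20 at E11.5 and 9.47 to 9.56 at E12.5, and the part of macrophage number in these values was not tested. For *Csf1r*, the 2 further probe sets pointed the same way but with smaller differences of 0.62 and 0.14 (adjusted p = 0.27 and 1).

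**Figure D4:**
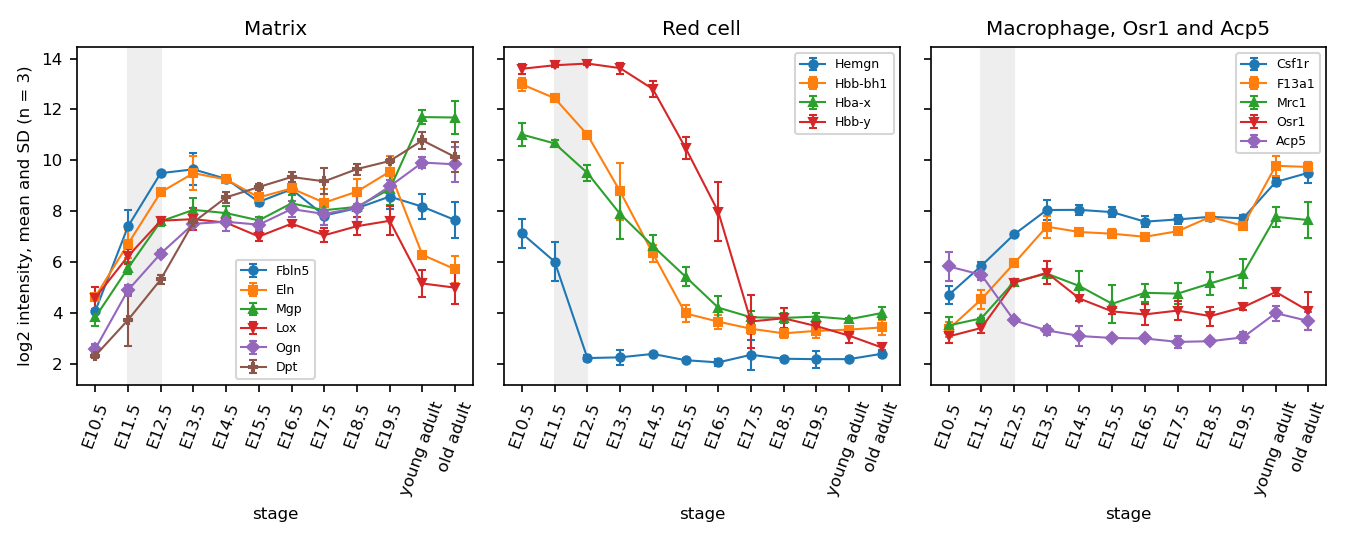
Mean log2 intensity with standard deviation (n = 3 arrays) at all 12 stages for 6 matrix genes (left), 4 red cell genes (middle) and 3 macrophage genes with *Osr1* and *Acp5* (right), with the step from E11.5 to E12.5 shaded. *Hemgn* goes from 6.01 to 2.22 within the shaded step and stays near that value, while *Hbb-bh1* and *Hba-x* decline over several days and *Hbb-y* is at 13.74 and 13.81 on either side of it.

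The largest change of the step was that of *Hemgn*, which encodes hemogen, a nuclear protein of blood cell precursors. It was at 6.29, 6.59 and 5.14 in the E11.5 arrays and at 2.31, 2.26 and 2.08 in those of E12.5 (log2 fold change -3.79, standard error 0.27, adjusted p = 2.2e-10). Of the E11.5 arrays mf3 was lowest, and it was still far above the highest E12.5 array. From E12.5 on, the stage means stayed between 2.04 and 2.38 up to the old adult heart. *Hemgn* had also fallen from E10.5 to E11.5 (log2 fold change -1.11, adjusted p = 0.021), and from E12.5 to E13.5 the difference was 0.03 (adjusted p = 0.98). *Hemgn* was the only gene whose step differed from the mean of these neighbouring steps past an adjusted p of 0.05 (difference -3.25, adjusted p = 0.00056), that is 1 of 11317 (0.00884%), while 1680 genes had an unadjusted p under 0.05 in that test. It has 1 probe set on the array, and whether its values from E12.5 on lay above background was not assessed. If they did not, the log2 fold change is a lower limit of the fall, and the step to E13.5 could not have been negative, so that the difference from the neighbouring steps would be fixed in part by the lower end of the scale.

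Among the embryonic globins, *Hbb-bh1*, the βh1 chain of primitive red cells, was at 12.53, 12.54 and 12.28 at E11.5 and at 10.92, 10.94 and 11.16 at E12.5 (log2 fold change -1.44, standard error 0.30, adjusted p = 0.043). *Hba-x*, the ζ chain, was at 10.61, 10.83 and 10.55 and then at 9.16, 9.78 and 9.56 (-1.16, standard error 0.31, adjusted p = 0.26). The arrays of both genes lay apart. With any of the 6 arrays left out *Hbb-bh1* was not past the limit (adjusted p = 0.1 to 0.3), with log2 fold changes of -1.52 to -1.39. *Hbb-y*, the εy chain, was at 13.72, 13.80 and 13.70 and then at 13.76, 13.83 and 13.84 (0.07, adjusted p = 1), and its arrays overlapped. Whether values this high lay near the upper end of the scale, where a fall could be hidden, was not assessed. All 3 probe sets of *Hbb-bh1* were lower, by -1.65, -1.44 and -1.44 (adjusted p = 0.0091, 0.043 and 0.061). The adult chain *Hbb-b2* was at 5.50, 5.77 and 6.01 and then at 5.84, 5.47 and 5.57 (-0.13, adjusted p = 1). Its other expressed probe set differed by 0.44. The stage means of the chosen probe set lay between 5.00 and 6.67 over the whole series. The adult chains *Hba-a1* and *Hba-a2* did not pass the expression limit at any stage. Whether these probe sets follow adult globin was not tested. Globin genes are close copies of each other, and probe sets may take up RNA of more than 1 chain.

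Of 12 expressed genes of haem synthesis, the red cell membrane and erythroid regulation, 1 fell (*Hemgn*) and 0 rose, beside 0.0707% and 0.133% of all genes. The median was -0.57. Arrays lay apart with lower values in 7 genes and with higher values in 0, beside 11.9% and 9.43% of all genes. Those 7 include *Ahsp*, which stabilizes free α-globin (-1.25, adjusted p = 1), the anion exchanger *Slc4a1* (-0.88, adjusted p = 1), *Ermap* (-0.83, adjusted p = 0.10) and the mitochondrial iron carrier *Slc25a37* (-0.82, adjusted p = 0.85). The haem synthesis genes *Alas2* and *Fech* differed by -0.42 and 0.08 (both adjusted p = 1). The summed level of the 20 genes of this list on the array, as log2, was 10.87 to 10.93 at E11.5 and 10.26 to 10.46 at E12.5, that of the 3 embryonic globins 14.27 to 14.43 and 14.00 to 14.11, and the part of the amount of blood in the hearts was not tested. *Tspan33*, which encodes a tetraspanin of erythroid cells and is not on the list, fell from 5.92, 6.08 and 6.04 to 4.93, 4.80 and 4.78 (-1.18, standard error 0.21, adjusted p = 0.0091). Its second expressed probe set differed by -0.48 (adjusted p = 1), and without mf1 or mf2 of E11.5 or m or mf of E12.5 it was not past the limit (adjusted p = 0.066 to 0.084), nor with the mean over its probe sets (-0.55, adjusted p = 0.17).

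The upstream sequences of 3 of these red cell genes are shown because the genes took different courses in the step, with values of -3.79 for *Hemgn*, -1.16 for *Hba-x* and 0.07 for *Hbb-y*. Each is the stretch of 250 bases before the annotated start in RefSeq (build GRCm38.p6), written 5′ to 3′ on the strand of the gene, with the letters GATAA, the core bound by GATA factors, or TTATC on the other strand, in capitals. *Hemgn* lies on the minus strand at chr4:46404184-46404433, *Hba-x* on the plus strand at chr11:32276350-32276599 and *Hbb-y* on the minus strand at chr7:103853208-103853457.
Hemgn: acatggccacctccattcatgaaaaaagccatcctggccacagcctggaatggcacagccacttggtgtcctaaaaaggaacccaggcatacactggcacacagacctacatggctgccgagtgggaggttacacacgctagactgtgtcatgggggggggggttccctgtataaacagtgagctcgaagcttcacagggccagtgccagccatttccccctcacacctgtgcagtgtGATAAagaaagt
Hba-x: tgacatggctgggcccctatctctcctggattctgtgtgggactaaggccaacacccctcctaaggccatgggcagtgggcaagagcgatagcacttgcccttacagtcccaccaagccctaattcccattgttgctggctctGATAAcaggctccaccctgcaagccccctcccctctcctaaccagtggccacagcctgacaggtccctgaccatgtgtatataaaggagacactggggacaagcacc
Hbb-y: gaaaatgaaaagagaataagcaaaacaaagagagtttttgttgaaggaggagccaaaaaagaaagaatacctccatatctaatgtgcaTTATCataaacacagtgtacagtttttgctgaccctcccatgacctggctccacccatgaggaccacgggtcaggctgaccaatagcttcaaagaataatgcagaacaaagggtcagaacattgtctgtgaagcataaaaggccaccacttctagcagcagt
GATAA, or TTATC in *Hbb-y*, was found once in each, 12 bases before the start in *Hemgn*, 107 in *Hba-x* and 162 in *Hbb-y*. On either strand it occurs in 22.6% of all 32851 promoter windows of this length. TATAA, the core of the TATA box, which shares the letters ATAA with GATAA, was found 80 bases before the start in *Hemgn* and 28 in *Hba-x*, and in 22.8% of all windows. CACCC, the core bound by Krüppel-like factors, was found in *Hba-x* and *Hbb-y* and in 52.0% of all windows. For the 23 genes that rose or fell, 17 windows of 12 genes could be searched, of which 3 held GATAA, 3 TATAA and 11 CACCC. These matches describe letters and do not show binding.

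The further genes that fell were *Acp5* and *Ncf4*, known from myeloid cells, and *Rassf5*, *Cadps* and *Fam169a*. *Acp5*, the tartrate-resistant acid phosphatase known from osteoclasts and macrophages, was at 5.30, 5.45 and 5.73 at E11.5 and at 3.81, 3.69 and 3.59 at E12.5 (log2 fold change -1.80, standard error 0.21, adjusted p = 4.3e-05). *Ncf4*, which encodes a cytosolic subunit of the phagocyte NADPH oxidase, was at 4.92, 5.19 and 4.85 and then at 3.50, 3.66 and 4.09 (-1.23, standard error 0.23, adjusted p = 0.018). Both are thus genes of myeloid cells that fell, while *Csf1r* and *F13a1*, named above, rose. *Rassf5*, the gene of a Ras effector, was at 8.14, 8.01 and 8.25 and then at 7.20, 7.27 and 7.10 (-0.95, standard error 0.19, adjusted p = 0.027). *Cadps*, whose product acts in the release of dense-core vesicles, was at 5.06, 4.67 and 4.89 and then at 3.79, 4.09 and 3.92 (-0.94, standard error 0.20, adjusted p = 0.042). *Fam169a* was at 6.97, 6.81 and 7.05 and then at 6.17, 6.34 and 6.17 (-0.72, standard error 0.15, adjusted p = 0.036). The 3 arrays of each day were close to each other in *Rassf5*, *Cadps* and *Fam169a*, whose stage means at E18.5 were 5.16, 2.94 and 4.89. With each of the 6 arrays left out *Acp5* passed (adjusted p = 0.00021 to 0.0013) and these 3 genes did not (0.068 to 0.36), while *Ncf4* passed only without mf3 of E11.5 (0.042) or mf of E12.5 (0.02).

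The other genes that rose are less well known or of unknown function. *A130040M12Rik*, which the array annotates as a RIKEN cDNA, was at 7.08, 7.32 and 7.53 at E11.5 and at 8.45, 8.59 and 8.53 at E12.5 (log2 fold change 1.22, standard error 0.21, adjusted p = 0.0082). The predicted gene *Gm20186* was at 6.74, 6.47 and 6.84 and then at 7.82, 8.37 and 8.15 (1.43, standard error 0.27, adjusted p = 0.019), and the expressed sequence *AI256396* at 3.20, 3.80 and 3.72 and then at 4.74, 5.12 and 4.88 (1.34, standard error 0.26, adjusted p = 0.027). *Gm20186* had almost the same stage mean at E13.5 (8.02) as at E12.5 (8.11), while *A130040M12Rik* went on to 10.90 in the old adult heart. The paper reports both as long non-coding RNAs that increased strongly over development. It derives the transcript of *A130040M12Rik* from virus-like elements. *Camk2n1*, which encodes an inhibitor of the kinase CaMKII, was at 5.02, 5.47 and 4.95 and then at 5.81, 5.79 and 6.18 (0.78, standard error 0.16, adjusted p = 0.044). With an array left out, *Camk2n1* passed only without mf2 (0.022), *Gm20186* only without mf3 or f (0.042 and 0.033), and *AI256396* never (0.057 to 0.32). *A130040M12Rik* was not past the limit without mf1, m or mf (0.12, 0.074 and 0.061). With the mean over all probe sets of a gene, *A130040M12Rik* (0.82, adjusted p = 0.097) and *Camk2n1* (0.35, adjusted p = 0.52) were not past the limit.

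Signalling pathways of septation had 0 calls, while 0.133% of all genes rose and 0.0707% fell. At these shares a list of this size would usually hold 0 calls, here and below, which does not show absence of change. Of 25 expressed Wnt ligands, receptors and antagonists, 0 rose and 0 fell at the adjusted limit in limma, 2 had an unadjusted p under 0.05, and arrays lay apart with higher values in 9 and with lower values in 2, beside 5.28%, 9.43% and 11.9% of all genes for these 3 counts. *Sfrp2*, a secreted Wnt antagonist, was at 6.63, 7.36 and 6.39 at E11.5 and at 8.96, 8.90 and 8.97 at E12.5. Its log2 fold change of 2.15 was larger than that of any gene that rose, but its standard error of 0.51, taken over all stages, left it at an adjusted p of 0.13. Of 28 genes of the BMP and TGF-β pathways, 0 rose and 0 fell, 3 had an unadjusted p under 0.05, and arrays lay apart with higher values in 10 and with lower values in 0, beside the same shares of all genes. The largest differences were those of the ligands *Tgfb3* (0.74) and *Bmp6* (0.58), while *Bmp4* was at 7.92, 8.10 and 8.16 and then at 8.13, 7.86 and 8.10 (-0.03, adjusted p = 1).

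Of 18 genes of Notch and neuregulin signalling, which links endocardium and myocardium, 0 rose and 0 fell. An unadjusted p under 0.05 was found in 2 of them, beside 5.28% of all genes. *Erbb3*, a neuregulin receptor, was at 6.50, 6.84 and 6.67 and then at 6.03, 5.88 and 5.91 (-0.74, adjusted p = 0.069). Of 18 semaphorin, plexin and endothelin genes 0 passed the limit and 1 had an unadjusted p under 0.05. Of 20 epicardial genes 0 passed and 3 had such a p, both counts beside 5.28% of all genes. The epicardial regulators *Wt1* and *Tbx18* differed by 0.09 and 0.36 (both adjusted p = 1) with overlapping arrays, and *Tcf21* by 0.39 (adjusted p = 1) with arrays that lay apart.

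**Figure D5:**
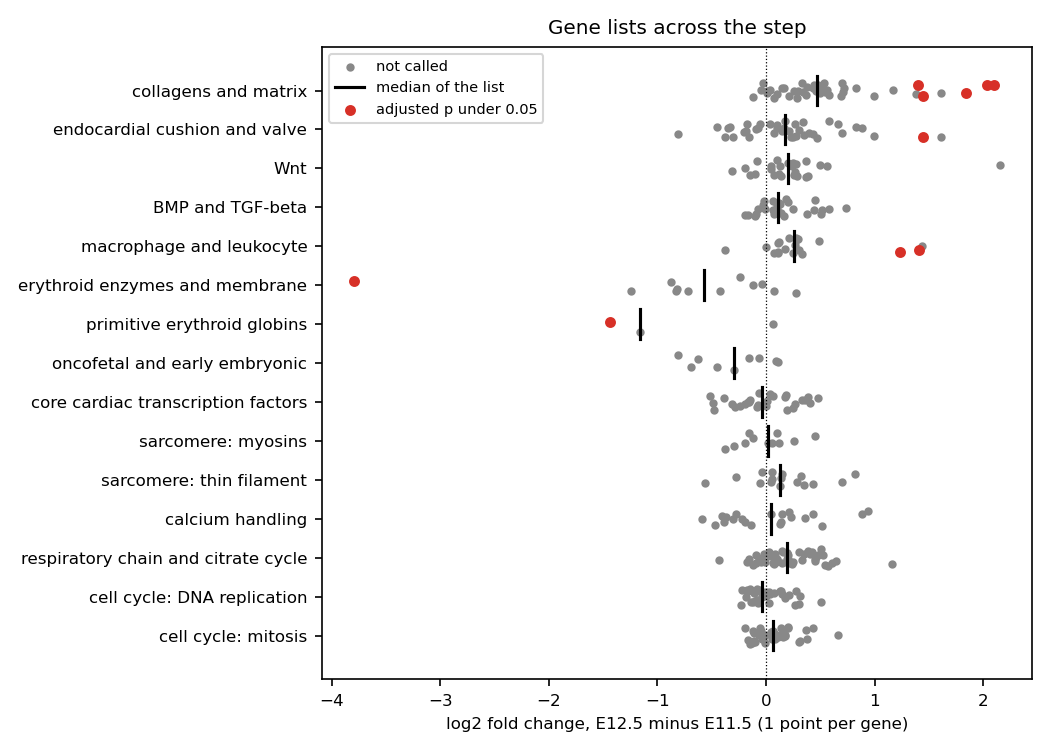
Log2 fold change from E11.5 to E12.5 (x axis) of the expressed genes of 15 lists, 1 point per gene, with genes past the adjusted limit as larger points and the median of each list as a bar. The bar of collagens and matrix lies at 0.47 and those of the red cell lists at -0.57 and -1.16, while the bars of the contractile and cell cycle lists lie between -0.04 and 0.13.

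Contractile genes of the myocardium had 0 calls, while 0.133% of all genes rose and 0.0707% fell, and medians near that of all genes. Of 11 myosin genes, 16 thin filament genes and 25 genes of the Z disc and M band, 0 rose and 0 fell. An unadjusted p under 0.05 was found in 0, 1 and 2 of them, beside 5.28% of all genes. *Myh7*, the slow myosin heavy chain of the embryonic ventricle, was at 13.44, 13.44 and 13.52 and then at 13.52, 13.49 and 13.55 (log2 fold change 0.06, adjusted p = 1). *Tnnt2*, cardiac troponin T, differed by 0.13, *Actc1*, cardiac α-actin, by 0.06 and the ventricular light chain *Myl2* by 0.10 (all adjusted p = 1). These levels, with those of *Nkx2-5*, *Myl7* and *Nppa*, show the labelled tissue in all 6 arrays. The largest differences on these lists were those of *Hspb7* (0.87, adjusted p = 0.34), a small heat shock protein of muscle, and *Tnnt1* (0.82, adjusted p = 0.41), slow skeletal troponin T.

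The 28 expressed core cardiac transcription factors gave 0 calls, and 4 had an unadjusted p under 0.05, beside 5.28% of all genes. *Nkx2-5* was at 8.19, 8.16 and 7.99 and then at 7.99, 7.97 and 7.89 (log2 fold change -0.17, adjusted p = 1), and *Gata4* at 6.32, 6.28 and 6.04 and then at 6.09, 6.25 and 6.41 (0.03, adjusted p = 1). The arrays lay apart with lower values in 8 of the 28, among them *Tbx5* (-0.52), *Irx5* (-0.49) and *Irx4* (-0.48), and with higher values in 4, among them *Gata6* (0.48) and *Mef2a* (0.40), all with an adjusted p of 1, beside 11.9% of all genes with lower and 9.43% with higher values. In calcium handling, 0 of 21 genes passed and 6 had an unadjusted p under 0.05, beside 5.28% of all genes. Calsequestrin 2 (*Casq2*), the calcium store protein of the cardiac sarcoplasmic reticulum, was at 7.15, 7.12 and 7.77 and then at 8.14, 8.27 and 8.28 (0.88, adjusted p = 0.16), whereas the calcium release channel *Ryr2* differed by -0.39 and the L-type channel *Cacna1c* by -0.41 (both adjusted p = 1).

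Energy metabolism and the cell cycle had 0 calls among 31 glycolytic, 36 fatty acid, 50 mitochondrial, 38 replication and 41 mitosis genes. Of all genes 0.133% rose and 0.0707% fell. An unadjusted p under 0.05 was found in 4, 2, 3, 0 and 2 genes of these lists, beside 5.28% of all genes. Of the mitochondrial genes 38 had a positive value, with a median of 0.19, but some varied more within a day than between the days. *Atp5b*, a subunit of ATP synthase, was at 9.90, 9.05 and 9.17 at E11.5 and at 9.07, 10.40 and 10.02 at E12.5, so that mf1 of E11.5 exceeded f of E12.5 (0.46, adjusted p = 1). *Slc2a1*, the glucose transporter of the embryonic heart, was at 12.00, 12.16 and 12.01 and then at 11.64, 11.58 and 11.54 (-0.47, adjusted p = 0.82). Of 17 expressed genes induced by low oxygen, the arrays of 6, including *Vegfa* and *Adm*, lay apart with lower values at E12.5. Those of 0 did so with higher values, beside 11.9% and 9.43% of all genes for lower and higher values. Of these 17 genes 0 passed and 2 had an unadjusted p under 0.05, beside 5.28% of all genes.

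Of 9 expressed genes on an oncofetal list, 0 rose and 0 fell, 4 had an unadjusted p under 0.05, and the median was -0.29, with lower values and arrays apart in 5, beside 5.28% of all genes for the unadjusted p and 11.9% for the arrays. *Trim71*, a heterochronic regulator of early embryos, was at 5.16, 4.81 and 4.91 and then at 4.14, 4.12 and 4.19 (log2 fold change -0.81, adjusted p = 0.26), and *Hmga2*, a chromatin protein of fetal cells, at 9.54, 9.41 and 9.27 and then at 8.97, 8.62 and 8.73 (-0.63, adjusted p = 0.99).

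Immediate early genes, which many stimuli induce within minutes, set E11.5 mf3 apart. *Fos* was at 11.34 and 11.49 in mf1 and mf2 but at 9.10 in mf3, and at 11.71 to 11.84 at E12.5, and *Egr1* was at 10.82 and 10.99 but at 9.46 in mf3, and at 11.20 to 11.38 at E12.5. Of the 26 genes of this list 0 passed and 2 had an unadjusted p under 0.05, beside 5.28% of all genes. The arrays lay apart with higher values at E12.5 in 10 genes and with lower values in 2, the metallothioneins *Mt1* (-0.40) and *Mt2* (-1.02), beside 9.43% and 11.9% of all genes, and the list had a median of 0.37 with 18 positive values. Those 10 include *Dusp1*, a phosphatase that limits MAP kinases, which was at 8.37, 8.18 and 7.63 and then at 8.86, 9.14 and 8.95 (log2 fold change 0.92, adjusted p = 0.83). On the linear scale the summed level of all 26 genes of the list, as log2, was 13.5 in mf1 and mf2, 12.7 in mf3 and 13.7 to 13.8 at E12.5. *Fabp4*, a fatty acid binding protein of adipocytes and endothelium, was at 4.04 and 3.96 in mf1 and mf2, at 7.06 in mf3 and at 5.68 to 6.31 at E12.5. Both *Hemgn* and *Dpt* were closer to their E12.5 level in mf3 than in the other arrays of E11.5, and the part of this array in their changes is given by the values without it, a log2 fold change of -4.23 for *Hemgn* and 2.19 for *Dpt*.

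Other lists had 0 members past the limit, while 0.133% of all genes rose and 0.0707% fell. Of 30 expressed genes of endothelium and endocardium, 15 of smooth muscle and pericytes and 7 of platelets, 0 rose and 0 fell. An unadjusted p under 0.05 was found in 3, 1 and 1 of them. The share of all genes beside these and the further such counts of this paragraph was 5.28%. *Cldn5*, the claudin of endothelial tight junctions, was at 3.91, 4.59 and 3.98 and then at 4.94, 5.12 and 4.69 (log2 fold change 0.76, adjusted p = 0.36), and *Actg2*, a smooth muscle actin, at 4.14, 4.26 and 4.12 and then at 4.84, 5.32 and 5.00 (0.88, adjusted p = 0.69). The arrays of both genes lay apart. *Nefl*, the light neurofilament, was at 5.29, 5.00 and 4.88 and then at 4.21, 4.25 and 4.08 (-0.88, adjusted p = 0.11), on a list of neural genes of which 7 of 23 were expressed and 0 passed, with 2 at an unadjusted p under 0.05. Interferon and MHC genes (21 expressed), retinoic acid genes (12), cell cycle brakes (22), ion channels (21), natriuretic peptides and stress genes (6), imprinted genes (16) and outflow progenitor genes (9) had 0 calls, with 4, 2, 3, 5, 1, 0 and 1 genes at an unadjusted p under 0.05. Among these, the interferon-induced gene *Ifitm3* was at 5.86, 5.94 and 6.07 and then at 6.66, 6.43 and 6.39 (0.54, adjusted p = 1).

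Most markers of neighbouring organs did not pass the expression limit at any stage. Of 12 genes of skeletal muscle and body wall on the array 0 were expressed, of 19 liver genes 4 and of 17 lung and foregut genes 3. Of these 0 passed the limit, while 1, *Spint2* (0.40), had an unadjusted p under 0.05, beside 5.28% of all genes. The summed level of the liver list was 7.59 to 7.64 at E11.5 and 7.58 to 7.72 at E12.5. That of the lung and foregut list was 9.22 to 9.42 at E11.5 and 9.45 to 9.85 at E12.5, with the epithelial gene *Epcam* at 6.47 in f as against 4.72 and 5.21 in m and mf and 4.86 to 5.23 at E11.5. The part of such tissue in the step was not tested.

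Fewer genes passed in this step than in the steps around it. From E10.5 to E11.5, 235 genes rose and 252 fell in the same model, and from E12.5 to E13.5, 133 rose and 112 fell, with a median absolute log2 fold change of 0.24 and 0.23, against 0.13 for the step from E11.5 to E12.5. These comparisons share the arrays of E11.5 or E12.5 with the step, so that their values are given only side by side. For *Fbln5* the log2 fold changes of the 3 successive steps from E10.5 to E13.5 were 3.33, 2.10 and 0.15, for *Eln* 2.08, 2.04 and 0.75 and for *Lox* 1.64, 1.40 and 0.06. The step to E13.5 was not past the limit in these genes (adjusted p = 0.89, 0.23 and 0.95). *Csf1r* had 1.15, 1.24 and 0.96 and *F13a1* 1.18, 1.41 and 1.45, with all 3 steps past the limit in both genes. *Dpt* had 1.40, 1.60 and 2.25 and *Thbs2* 1.42, 1.30 and 1.37. In *Osr1* (0.33, 1.78 and 0.40), *Gm20186* (0.51, 1.43 and -0.09) and *Acp5* (-0.33, -1.80 and -0.39) the middle step was the largest. The test of its difference from the neighbouring steps was not past the limit (adjusted p = 0.29, 0.37 and 0.25 in limma). *Osr1* was low at E10.5 and E11.5 (3.07 and 3.40), and *Acp5* at E12.5 and E13.5 (3.70 and 3.31). Whether these values lay above background was not assessed, and if not, the lower end of the scale would fix part of the small neighbouring steps.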

How the data were processed

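Log2 intensities of 36 Affymetrix whole-genome mouse arrays were used as deposited. Per the labels and the submitters' processing notes, the authors made these log2 values by RMA, and Affymetrix Expression Console and Partek 6.6 are named. Total RNA came from hearts homogenized whole, although the extraction text of the labels also names another organ, liver. Stages and sexes were taken from the labels, and all columns of values were used. Nothing states which arrays came from separate litters, so p-values measure the spread between these arrays, whose number limits the precision.

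Means of 12 stages were fitted to all 36 arrays with limma 3.58.1 (R 4.3.3), and moderated p-values of E12.5 minus E11.5 were adjusted by Benjamini-Hochberg over 45101 probe sets, of which 6937 had no gene ID. A gene was represented by its probe set with the highest mean and kept with a mean above 5 at 1 or more stages. Symbols followed RefSeq, where 18342 of 20701 genes were found. A rule picked the 12 highest and 12 lowest genes past the limit whose arrays did not overlap, and list members past the limit. It also picked the first 3 genes of each list and globin and sex-linked genes, but many of these are not given above. Other genes, among them many list members without a call, were named after their values were seen. Members and the 40 lists were chosen with earlier results of these data known. The procedure was tested on simulated data.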

Additional observations from a re-analysis of the deposited data

Results flagged for a closer look

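*Hemgn* differed between the steps. Its log2 change from E11.5 to E12.5 was -3.79, while it was -1.11 from E10.5 to E11.5 and 0.03 from E12.5 to E13.5. The step minus the mean of these neighbouring steps was -3.25 (adjusted p = 0.00056 in limma), and all 3 arrays of E12.5 lay below all 3 of E11.5. The neighbouring steps share the arrays of E11.5 or E12.5 with it. Whether *Hemgn* was above background from E12.5 on was not assessed. If it was not, its step to E13.5 could not have been negative, which would fix part of the difference. The cause was not tested.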

How the results depend on the processing

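The counts of 15 genes higher and 8 lower, 1 gene past the limits of the study and 1 gene whose step differed from its neighbours depended on the setting. A model of the 6 arrays alone gave 66 higher, 42 lower and 0 past the limits of the study, and one of the 30 embryonic arrays 13 lower. Quantile renormalization gave 5 lower and 2 that differed, median centring likewise 5 and 2, and the hybridization control level as covariate 25 higher and 2 that differed. Array weights gave 407 higher, 407 lower and 2960 that differed. With the E12.5 mixed array alone, assumed to vary like the other arrays, 0 were higher, 2 lower and 0 differed. An expression limit of 6 gave 5 lower, and a call at any probe set, chosen after seeing the data, 13 lower. With 1 array left out in turn, 2 to 12 genes were higher, 2 to 4 lower, 1 to 3 past the limits of the study and 1 to 2 differed. Except where a change is by construction (fewer arrays or genes), the cause was not tested.

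None of the 23 genes changed sign in the 16 alternatives run for each, all of which reuse the same arrays. As the arrays of all 23 lay apart, leaving arrays out could not change a sign. *Hemgn* and *Acp5* passed in all alternatives with 2 or more arrays of each day. The mean over all probe sets of a gene ended the calls of *Ltbp3*, *Ogn*, *Csf1r*, *A130040M12Rik*, *Camk2n1* and *Tspan33*. Of 88 genes without a call that were followed in these fits, 16 changed sign in 43 fits, all with a log2 fold change of 0.162 or less in size. No paired analysis was possible because the labels give the 2 stages no shared replicate numbers. Signal over background was not assessed, since detection calls were not used here.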
